A study of Arabidopsis thaliana with 4 samples.

Results

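Plant mitochondria keep a genome of their own that encodes a small share of the proteins they need. It holds subunits of the respiratory complexes, parts of the machinery that attaches haem to cytochrome c, some ribosomal proteins, a maturase that helps to splice introns, and a membrane transport protein. Most other subunits of the same complexes are encoded in the nucleus and imported. Mitochondrial transcripts are spliced and edited, and in plants a poly(A) tail on them marks RNA for decay instead of protecting it. A copy of much of this genome also sits in nuclear chromosome 2 of Arabidopsis.

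Transcripts of this genome were followed through 51 probe sets of the ATH1 array, a short-oligonucleotide array on which each probe set reads 1 transcript or a family of them. They were chosen by their place in the array's numbering, in a run given over to mitochondrial genes, with a stretch of plastid genes left out, from 22746 gene probe sets in all. The rule itself uses no measured value. The platform table paired 12 of the 51 with 1 mitochondrial gene, 1 with both rps3 and rpl16, 5 with nuclear loci whose names start with AT2G07 (on chromosome 2), and 32 with no gene. The remaining member was paired with the plastid gene rps12 and so goes against the block's name. It is kept by its rule and named as plastid throughout. Of the 51 members, 14 carry the suffix _s_at, which marks probes that match more than 1 transcript, so for these the mitochondrial gene and a nuclear copy cannot be told apart.

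RNA came from whole Arabidopsis thaliana plants of accession Ws-2 at growth stage 1.06, grown at 23 °C with 16 hours of light. The 4 groups were ku80 plants with bleomycin, ku80 plants without it, wild type plants with bleomycin and wild type plants without it. The ku80 line carries a T-DNA insertion in At1g48050, the gene for a subunit of the Ku complex that holds DNA ends for end joining. Bleomycin, which breaks DNA strands, was applied for 3 days at 1 mg per litre, and the labels name no mock treatment for the plants without it. Each group was 1 array of RNA pooled from 20 plants, so no difference between 2 arrays has a replicate check, and 1 mutant line stands for the genotype. No probe set was paired with KU80 in the tables used (0 found), so KU80 RNA was not read here. In whole plants, fewer mitochondria and less RNA per mitochondrion cannot be told apart.

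Values are intensities on a linear scale after each array was divided by a common factor, in arbitrary units. A floor was set at the 40th percentile of all values, an intensity of 28.0, and a member counted as measured when at least 1 array lay above it. Differences are log2 values with the floor in place of anything lower, so a difference against an array at the floor is a lower bound. All 4 arrays had the same trimmed mean as deposited (100.01). The bacterial spike-in controls, 13 probe sets, stood 1.39-fold, 1.76-fold and 1.76-fold brighter on the ku80 array with bleomycin, the ku80 array without it and the wild type array with it than on the wild type array without it. The part of this in the differences against that array was not tested. Of the tissue marker genes, RCA, a leaf gene of photosynthesis, lay between 1697 and 2664, and PYK10, a root gene, between 1789 and 2490, while the root hair gene EXPA7 passed the floor on 1 array, the pollen gene AT59 on 0, and no flower marker was paired.

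A smaller share of members gave a signal than of probe sets in general. Of the 51, 25 were measured (49.0%, against 67.4% of all gene probe sets), and 18 lay above the floor on all 4 arrays (35.3%, against 52.2%). The other 7 of the 25 were above it on 1 to 3 arrays. By array, 22 members were above the floor in ku80 with bleomycin, 21 in ku80 without it, 24 in wild type with it and 20 in wild type without it. Named genes were measured more often than unnamed probe sets, with 10 of 12 members paired with 1 mitochondrial gene against 10 of 32 with no gene.

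**Figure D1:**
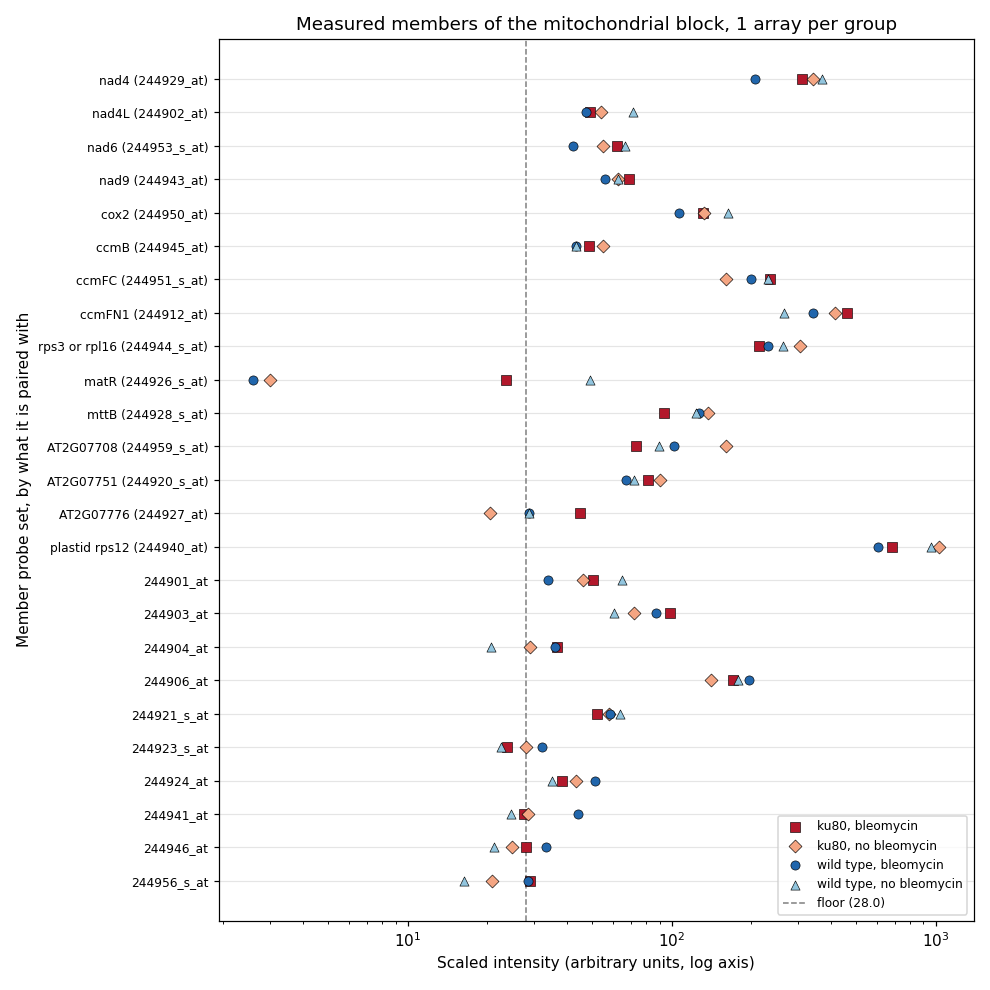
Scaled intensity (log axis, arbitrary units) of the 25 measured members on each of the 4 arrays, 1 point per array, grouped by what each probe set is paired with. The dashed line is the floor at 28.0. In nad4, nad4L, nad6, nad9 and cox2 the wild type array with bleomycin is the lowest of the 4, and matR lies above the floor on 1 array.

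Complex I, the NADH dehydrogenase that feeds electrons into the respiratory chain, was read by 5 members. In nad4, which encodes a membrane subunit of its proton-pumping arm, intensities were 312 in ku80 with bleomycin and 343 in ku80 without it, and 207 in wild type with bleomycin and 372 in wild type without it. The wild type array with the drug was thus the low one, 1.80-fold below wild type without it (log2 -0.85), while ku80 with the drug was at log2 -0.14 against ku80 without it. For nad6, another membrane subunit of the same arm, the values were 61.9 and 54.8 in ku80 with and without bleomycin and 42.2 and 66.8 in wild type with and without it. This was 1.58-fold lower with the drug in wild type (log2 -0.66) and 1.13-fold higher in ku80 (log2 0.18). The nad6 probe set, 244953_s_at, can bind related transcripts.

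The small membrane subunit gene nad4L read 48.9 and 54.0 in ku80 with and without bleomycin, and 47.2 and 71.4 in wild type with and without it. Here wild type without the drug stood above the other 3 arrays, and the drug's difference was log2 -0.60 in wild type and -0.14 in ku80. The gene nad9, for a subunit of the peripheral arm, varied least of the 4: it read 68.8 and 62.8 in ku80 with and without bleomycin and 55.7 and 62.5 in wild type with and without it (log2 0.13 in ku80 and -0.17 in wild type). The fifth complex I member, nad7, for another subunit of the peripheral arm, stayed below the floor on every array, between 7.0 and 8.7.

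Complex IV, cytochrome c oxidase, which passes electrons to oxygen, was read through cox2, the gene of its copper-binding subunit. Intensities were 131.5 and 132.8 in ku80 with and without bleomycin, and 107 and 164 in wild type with and without it. The ku80 pair nearly coincided (log2 -0.01), and wild type was 1.54-fold lower with the drug (log2 -0.62). All 5 measured members of complexes I and IV were therefore lower with bleomycin in wild type, with a median of -0.62, and they lay on both sides of 0 in ku80, between -0.14 and 0.18 with a median of -0.01. The median of all measured probe sets was 0.00 in both comparisons. The difference between the 2 responses, ku80 minus wild type, was 0.71 for nad4, 0.84 for nad6, 0.60 for cox2, 0.45 for nad4L and 0.30 for nad9. With 1 array per group it was not tested.

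The bleomycin differences within each genotype were ordinary in size for the array. The differences between the 2 responses were not set against the array. Taking the 10163 probe sets that every array placed above the floor, with a mean intensity of 40 to 500, the central 90% of bleomycin differences ran from -1.24 to 1.04 in wild type and from -1.05 to 0.80 in ku80. Of the 17 members in that band, none lay outside this range in wild type (0 below and 0 above). In ku80 only AT2G07708 did, among these 17. None of the 25 measured members reached 2-fold in wild type in either direction (0 and 0), where 5.55% of all measured probe sets passed it upwards and 8.37% downwards. In ku80, 0 members were at least 2-fold higher and 1 was at least 2-fold lower, against 2.49% and 5.6% of all measured probe sets.

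**Figure D2:**
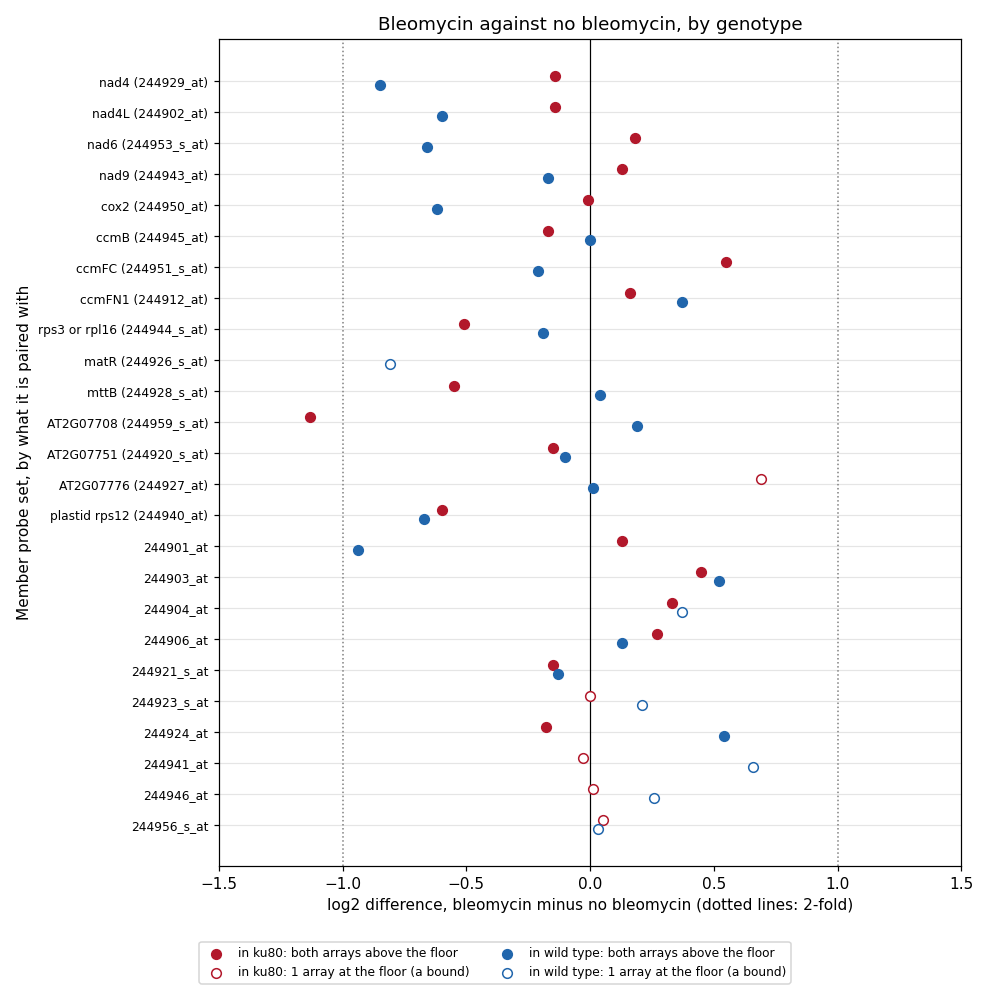
Log2 difference between the array with bleomycin and the array without it, in ku80 and in wild type, for each measured member. Filled points have both arrays above the floor, open points are bounds, a pair with both arrays at the floor is not drawn, and dotted lines mark 2-fold. The 5 nad and cox2 points in wild type lie between -0.85 and -0.17, and their ku80 points between -0.14 and 0.18.

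The genes for cytochrome c maturation, which encode membrane proteins that carry and attach haem, did not share 1 pattern. For ccmFN1 (ccb382 in the platform table), a part of the haem ligase, the intensities were 463 and 415 in ku80 with and without bleomycin, and 344 and 266 in wild type with and without it. Both ku80 arrays were above both wild type arrays, and both arrays with the drug were above their counterparts without it, by log2 0.16 in ku80 and 0.37 in wild type. Another part of the ligase, ccmFC (ccb452), read 236 and 161 in ku80 with and without the drug and 199.9 and 231 in wild type with and without it. It was 1.47-fold higher with bleomycin in ku80 and 1.16-fold lower in wild type, so the low array was ku80 without the drug. As in nad6 and nad9, the drug's difference was thus above 0 in ku80 and below 0 in wild type. The ccmFC probe set, 244951_s_at, can bind related transcripts.

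The transporter subunit gene ccmB (ccb206) lay at 48.5 and 54.8 in ku80 with and without bleomycin and at 43.6 on both wild type arrays. The drug's difference was log2 -0.17 in ku80 and 0.00 in wild type. A further part of the ligase, ccmFN2 (ccb203), stayed below the floor on all 4 arrays, between 4.2 and 5.3. In all, 3 of 4 maturation members were measured, with a median bleomycin difference of 0.16 in ku80 and 0.00 in wild type.

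The member paired with both rps3 and rpl16, 2 ribosomal protein genes that overlap in the RefSeq table, cannot be assigned to either. This probe set, 244944_s_at, read 215 and 307 in ku80 with and without bleomycin, and 232 and 264 in wild type with and without it, lower with the drug by 1.43-fold and 1.14-fold. In mttB (orfX), which encodes a TatC-like membrane protein of the transport machinery, the values were 93.6 and 137 in ku80 with and without bleomycin and 127 and 124 in wild type with and without it. The ku80 array with the drug was the low one, 1.46-fold below ku80 without it, and the wild type pair differed by 1.03-fold. The sign of that small wild type difference depended on the scaling, which put it between -0.02 and 0.14 (log2). Both probe sets can bind related transcripts.

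The maturase gene matR, whose product helps group II introns to splice, differed from the other named genes in that its 244926_s_at probe set was above the floor on a single array. It read 23.6 and 3.0 in ku80 with and without bleomycin, and 2.6 and 49.0 in wild type with and without it. Against the floor, wild type was at least 1.75-fold lower with the drug, and both ku80 arrays lay below the floor, so no fold is given there. With a lower floor, at the 20th percentile, matR was at least 2-fold lower in wild type with bleomycin than without it and at least 2-fold higher in ku80 (log2 -2.36 and 1.31).

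Of the 5 members paired with an AT2G07 locus, 3 were measured. AT2G07708, another member with the _s_at suffix, read 73.1 and 160 in ku80 with and without bleomycin, and 102 and 89.4 in wild type with and without it. It was 2.19-fold lower with the drug in ku80 (log2 -1.13), the only member past 2-fold in any of the 4 comparisons, and 1.14-fold higher in wild type. Its high array was ku80 without the drug. AT2G07751 lay at 81.7 and 90.5 in ku80 with and without bleomycin and at 67.2 and 72.2 in wild type with and without it. In AT2G07776, the values were 45.1 and 20.6 in ku80 with and without the drug, at least 1.61-fold higher, and 28.9 and 28.7 in wild type with and without it. AT2G07674 and AT2G07732 stayed below the floor on all 4 arrays.

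Among the 32 unnamed members 10 were measured, 5 of them on all 4 arrays. The brightest was 244906_at, at 170 and 141 in ku80 with and without bleomycin and 196 and 179 in wild type with and without it. Among the unnamed members, the lowest bleomycin difference in wild type was that of the first of the block in numbering, at 50.2 and 46.0 in ku80 with and without the drug and 34.0 and 65.1 in wild type with and without it (log2 0.13 in ku80 and -0.94 in wild type). Its array order matched that of nad6, with wild type with the drug lowest and wild type without it highest. The next, 244903_at, was higher with bleomycin in both genotypes, at 98.4 and 71.9 in ku80 with and without it and 86.9 and 60.5 in wild type with and without it (log2 0.45 and 0.52).

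For 244924_at the values were 38.6 and 43.6 in ku80 with and without the drug and 51.2 and 35.2 in wild type with and without it (log2 -0.18 in ku80 and 0.54 in wild type). The member 244921_s_at varied little, between 52.0 and 63.9. The 5 unnamed members near the floor were 244904_at, 244923_s_at, 244941_at, 244946_at and 244956_s_at, with 44.3 the highest value on any array. Of these, 244904_at read 36.7 and 29.2 in ku80 with and without bleomycin and 36.3 and 20.7 in wild type with and without it. For 244946_at the values were 28.1 and 24.9 in ku80 with and without the drug and 33.4 and 21.2 in wild type with and without it. All 5 were below the floor in wild type without bleomycin and above it in wild type with it. Members this dim count as measured only where some array passes the floor, so this crossing partly follows from that rule. The share of all probe sets crossing the same way was not taken. The wild type differences, all lower bounds, ran from 0.03 to 0.66, and the ku80 differences from -0.03 to 0.33. At this floor the 2 genotypes were close for 244904_at (ku80 0.33, wild type 0.37) and 244956_s_at (ku80 0.05, wild type 0.03). For 244923_s_at, 244941_at and 244946_at the wild type difference was the higher. In wild type the 5 unnamed members above the floor on both arrays had a median bleomycin difference of 0.13, with 3 above 0 and 2 below. The other 22 unnamed members never passed the floor, with medians of 8.3 and 5.7 in ku80 with and without bleomycin and 10.0 and 7.4 in wild type with and without it.

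The plastid rps12 member read 683 and 1032 in ku80 with and without bleomycin, and 605 and 961 in wild type with and without it. Both arrays with the drug were below both without it, by 1.51-fold in ku80 and 1.59-fold in wild type. Leaving it out changed no count of members past 2-fold and moved each median over all measured members by at most 0.01. Over members above the floor on both arrays, the median bleomycin difference in ku80 went from -0.14 to -0.08 without it. The median of ku80 against wild type without bleomycin went from 0.06 to 0.01 over such members.

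Over all 25 measured members, bounds and pairs at the floor included, the median bleomycin difference was 0.00 in ku80 and 0.00 in wild type. The 19 members above the floor on both arrays of a genotype had a median of -0.14 in ku80 and -0.13 in wild type, with 8 above 0 and 11 below in each. Of the 25, 11 were above 0 in ku80 and 13 in wild type, with 13 and 12 below. Neighbouring genes on the mitochondrial genome, in the order of the RefSeq table, read alike in some pairs and not in others in wild type. The neighbours cox2 and ccmB had bleomycin differences of -0.62 and 0.00 there, ccmFC and nad4 had -0.21 and -0.85, and nad4 and mttB had -0.85 and 0.04. The member paired with rps3 and rpl16 and its neighbour nad9 had -0.19 and -0.17. Next to nad6, at -0.66, lies cob, which a probe set outside the block reads together with a nuclear locus, at -0.71.

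Between genotypes the members' differences ran from -0.66 to 0.64 with bleomycin and from -0.81 to 0.84 without it (log2). With bleomycin, all 5 measured members of complexes I and IV were higher in ku80 than in wild type, by log2 0.05 for nad4L, 0.30 for nad9, 0.30 for cox2, 0.55 for nad6 and 0.59 for nad4. This comparison shares its wild type array with the bleomycin comparison in wild type, so it is not separate evidence. Without bleomycin 4 of the 5 were lower in ku80, between -0.40 and -0.11, and nad9 lay at 0.01, a value whose sign turned with the scaling (-0.02 to 0.06). For ccmFN1 both comparisons had the same sign, log2 0.43 with bleomycin and 0.64 without it, and ccmB was at 0.15 and 0.33.

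In the other direction, mttB was at log2 -0.44 with bleomycin and 0.14 without it. AT2G07708 was likewise at log2 -0.49 in ku80 against wild type with bleomycin and 0.84 (1.79-fold) without it. With the signs of most nad and cox2 members, ccmFC was at 0.24 with the drug and -0.52 without it. The unnamed first member of the block was at 0.56 with the drug and -0.50 without it. No member reached 2-fold in either direction with or without bleomycin (0 in each), where the shares of all measured probe sets past 2-fold were 1.85% higher and 2.35% lower in ku80 with the drug, and 2.53% higher and 2.09% lower without it. Over the 25 members the median was 0.05 with bleomycin and 0.00 without it.

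**Figure D3:**
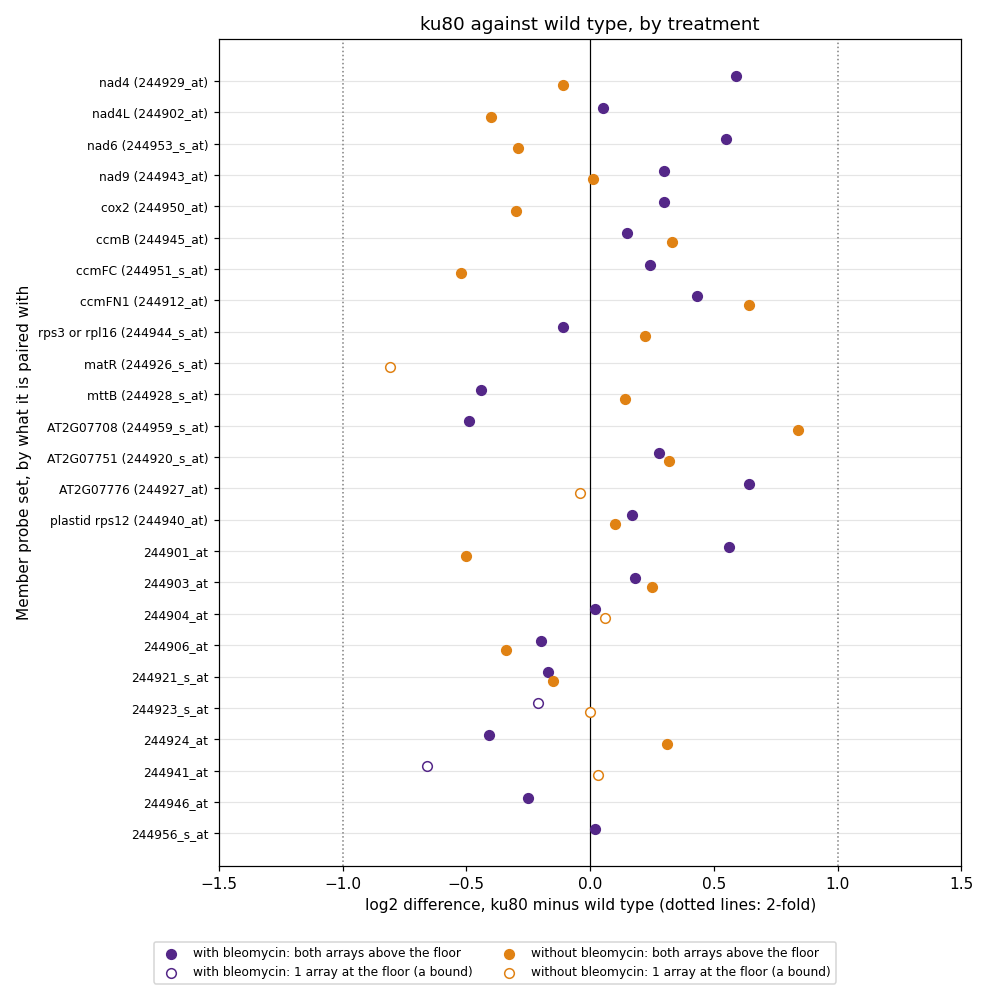
Log2 difference between ku80 and wild type, with bleomycin and without it, for each measured member. Filled points have both arrays above the floor, open points are bounds, a pair with both arrays at the floor is not drawn, and dotted lines mark 2-fold. No member reaches 2-fold, and ccmFN1 is above 0 in both comparisons (0.43 and 0.64).

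The members were tested in a linear model with genotype and bleomycin as additive terms, fitted in limma over all 15336 measured probe sets with Benjamini-Hochberg adjustment. Its residual is the difference between the 2 genotypes' responses, so a response present in 1 genotype only counts as noise in it. At an adjusted p of 0.05 it called 0 of the 25 members for bleomycin, where 2.23% of all measured probe sets were called as risen and 4.59% as fallen. At an unadjusted p under 0.05 there were also 0 of the 25, against 3171 of all 15336. The member with the lowest adjusted p was matR (log2 -0.40, SE 0.21, limma adjusted p = 0.3), followed by 244904_at and the plastid rps12 member (limma adjusted p = 0.32 for each). However, matR lay above the floor on 1 array and 244904_at on 3, and the floor stood in for the rest. Their fitted changes and SEs are thus partly set by the floor. For nad4 the fitted change was -0.49 (SE 0.28, limma adjusted p = 0.35), and for cox2 it was -0.32 (SE 0.30, limma adjusted p = 0.61).

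For genotype the same fit called 0 of the 25 members, where 0.143% of all measured probe sets were called as risen and 0.104% as fallen. At an unadjusted p under 0.05 there were 0 of the 25, against 1062 of all 15336. The lowest adjusted p was that of ccmFN1, at 0.54 (log2, SE 0.28, limma adjusted p = 0.79). The SEs of the members lay between 0.16 and 0.35. A missed threshold does not show that these transcripts held steady.

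Other probe sets on the array also read mitochondrial genes, 22 of them outside the block, of which 16 were measured. Their median bleomycin difference was 0.00 in ku80 and -0.11 in wild type, with a range of -0.71 to 0.36 in wild type. For cox1, the catalytic subunit gene of complex IV, intensities were 259 and 275 in ku80 with and without bleomycin and 329 and 356 in wild type with and without it, so the wild type difference (log2 -0.11) was smaller than that of cox2. The nad5 probe set above the floor on all 4 arrays, which can bind related transcripts, read 71.8 and 45.8 in ku80 with and without bleomycin and 52.7 and 72.4 in wild type with and without it (log2 0.65 and -0.46). The table pairs 7 probe sets with nad1 alone, a gene whose pieces are transcribed apart and joined by trans-splicing, and 5 of them were measured. Their wild type differences ran from -0.71 to 0.31, so these do not give 1 value for that gene. Limma called 0 of the 16 for bleomycin and 0 for genotype. Of all measured probe sets, it called 2.23% as risen and 4.59% as fallen for bleomycin, and 0.143% and 0.104% for genotype. At an unadjusted p under 0.05 there was 1 for each, against 3171 and 1062 of all 15336 measured probe sets.

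Plastid genes outside the block, 74 measured, had medians of -0.59 in ku80 and -0.40 in wild type. For bleomycin limma called 7 of the 74 as fallen and 0 as risen, against 4.59% and 2.23% of all measured probe sets. The block's medians were 0.00 in both, or -0.14 in ku80 and -0.13 in wild type over members above the floor on both arrays. Without the plastid rps12 member the latter 2 were -0.08 and -0.12. Like mitochondrial RNA, plastid RNA mostly lacks stable poly(A) tails, and the labelling was primed with oligo-dT. The 25S rRNA control, another RNA without a stable tail, read 1783 and 2392 in ku80 with and without bleomycin and 2052 and 1497 in wild type with and without it. In wild type it was thus higher with the drug, where nad4, nad6 and cox2 were lower. The part of priming in any of these values was not tested.

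Nuclear genes for subunits of the respiratory complexes and ATP synthase and for cytochrome c were mostly higher with bleomycin in wild type. There the 5 measured nad and cox2 members were lower, while the block as a whole had 13 members above 0 and 12 below. Of 58 listed loci, 30 probe sets were measured. In wild type 28 of the 30 were higher with bleomycin, with a median of 0.86 (log2), beside 7280 of all 15336 measured probe sets. In ku80 22 of the 30 were higher, with a median of 0.12, beside 7110 of all 15336. The 30 include 3 of complex II, 9 of complex III and cytochrome c and 2 of ATP synthase, which no named member of the block reads. For complexes I and IV alone the nuclear medians in wild type were 0.86 and 0.76. In complex I the 9 measured nuclear members were all higher in wild type, between 0.40 and 1.05, beside the 4 mitochondrial nad members between -0.85 and -0.17. Outside the block, mitochondrial nad1 probe sets lay on both sides of 0 there, from -0.71 to 0.31, and nad5 probe sets at -0.11 and -0.46. Among the nuclear members FRO1, a subunit of the peripheral arm, read 668 and 498 in ku80 with and without bleomycin and 846 and 408 in wild type with and without it. In complex IV, 6 of 7 nuclear members were higher in wild type and AT3G15640 was lower (log2 -1.51), beside -0.62 for cox2. Outside the block, mitochondrial cox1 was at -0.11, and cox3, read together with a nuclear locus, was at 0.04. The contrast thus did not extend to all mitochondrial genes of these 2 complexes. Of the 30, limma called 1 for bleomycin, the cytochrome c gene CYTC-2, which rose by 0.95 (log2, SE 0.28, limma adjusted p = 0.048), and 0 for genotype. Of all measured probe sets, 2.23% were called as risen for bleomycin. Both sets of genes were read against the same wild type array without bleomycin, on which 28 of the 30 nuclear members were also lower than on the ku80 array without it. The difference between the 2 sets was not tested.

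**Figure D4:**
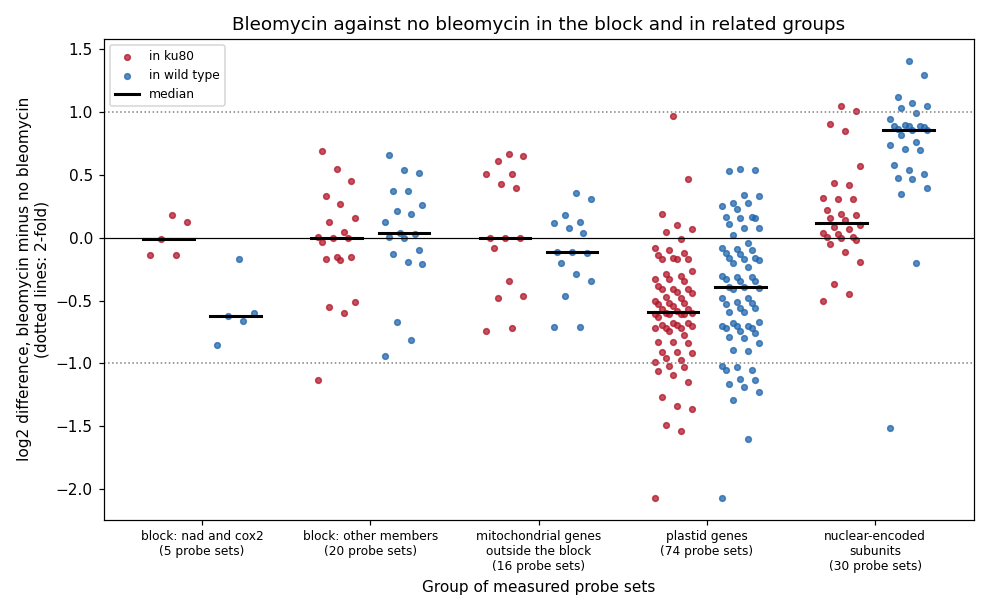
Log2 difference between arrays with and without bleomycin in ku80 and wild type, 1 point per measured probe set, for nad and cox2 members, the other members, mitochondrial genes outside the block, plastid genes and nuclear-encoded subunits of the respiratory complexes, ATP synthase and cytochrome c. Bars are medians and dotted lines mark 2-fold. The wild type medians are -0.62 for nad and cox2, -0.11 for mitochondrial genes outside the block and 0.86 for the nuclear-encoded subunits.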

How the data were processed

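Values were the deposited intensities of 22746 gene probe sets on 4 arrays, linear and never negative, with 64 control probe sets set aside. The authors' processing software is not given in the sources used here, and the deposited arrays share 1 trimmed mean, 2% off each end. Per the labels' protocols, cDNA was primed with oligo-dT and the cRNA carried biotin. Each array was scaled by its median ratio to the geometric mean over the brighter 50% of probe sets, floored at the 40th percentile (28.0) and taken as log2. A probe set was measured when above the floor on at least 1 array. With 1 array per group, pairwise differences carry no p-value. The test was limma 3.58.1 in R 4.3.3, with genotype and bleomycin as additive terms, an intensity trend and Benjamini-Hochberg adjustment over 15336 probe sets at 0.05. It rests on 1 residual degree of freedom and 15.9 prior degrees of freedom that limma takes from all measured probe sets. The SEs thus mostly reflect variance shared across probe sets. On simulated data of 15336 probe sets, 200 were changed by bleomycin equally in both genotypes, with no genotype effect. The bleomycin effect was recovered for 28% of log2 changes of 1 and 99% of log2 changes of 2, with 17 of 15136 unchanged ones called. This setting does not cover a response in 1 genotype only. The rule for members uses array numbering alone, but the block it describes and the gene lists were picked with earlier results of these data known. Tables were made with Python 3.11.15 and pandas 2.3.3. Gene names came from the platform annotation, updated through RefSeq's TAIR10.1 table, which matched mitochondrial genes by symbol or synonym. Values on every array are given for members with a named role and for the 5 highest and 5 lowest differences in each comparison among members above the floor on both arrays, and other members are given by range, count or value. Nuclear lists covered subunits of the respiratory complexes, ATP synthase, mitochondrial ribosomes, RNA factors, DNA maintenance and stress responses. The alternatives were other scalings, floors, thresholds, member sets and model terms.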

Additional observations from a re-analysis of the deposited data

How the results depend on the processing

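Of the results on counts and medians of members, 128 values were classed as alike under the alternatives and 16 moved, and 0 reversed. The class is coarse and does not measure how close 2 values are. The median bleomycin difference in wild type ran from -0.15 to 0.12, on both sides of 0, and was still classed as alike. With a floor at the 20th percentile, members at least 2-fold higher with bleomycin numbered 2 in ku80 and 1 in wild type, and 1 was lower in each. At that floor 2 were higher in ku80 than in wild type with bleomycin, and 1 was lower without it. The shares of all 19802 probe sets measured at that floor were not taken, so these counts have nothing to be set against. At 1.5-fold in place of 2-fold, 1 member was higher and 2 lower with bleomycin in ku80, and 1 was higher and 7 lower in wild type. Of all measured probe sets, 9.09% were higher and 13.5% lower at that threshold in ku80, and 16.1% and 19.2% in wild type. Between genotypes it gave 2 higher and 1 lower with bleomycin (9.15% and 9.2% of all), and 2 higher and 1 lower without it (7.14% and 8.48% of all). The 1 member at least 2-fold lower with bleomycin in ku80, AT2G07708, gave a count of 0 at 3-fold, without _s_at members, or without members paired with a nuclear or plastid gene, the last chosen after seeing the data. Of single members' values, 395 stayed alike and 5 passed 2-fold, all at the lower floor. In wild type the bleomycin difference ran from -0.93 to -0.85 for nad4, from -0.68 to -0.53 for cox2, from -0.66 to -0.17 for nad4L, from -0.72 to -0.07 for nad6 and from -0.23 to 0.00 for nad9 over scalings and floors. Limma called 0 members in each of the 8 fits for bleomycin and 0 for genotype, with 0 to 2 members at an unadjusted p under 0.05. For that last count, the share over all probe sets was taken in the main fit only. Over all probe sets, bleomycin calls of 342 risen and 704 fallen became 74 and 101 after quantile normalization, 146 and 321 without the intensity trend, and 0 and 0 without the filter or without genotype in the model. Genotype calls of 22 and 16 ranged from 0 and 0 to 69 and 50. The cause of these shifts was not tested. No paired analysis was possible because each group has 1 array and the labels give no replicate numbers, and for the same reason no array could be left out of a group. Signals near the floor limit matR (-2.36 to 0.00 in wild type and 0.00 to 1.31 in ku80), AT2G07776 (0.00 to 1.13 in ku80), nad4L, nad6 and the dim unnamed members.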

Other observations

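Nuclear genes that act on mitochondrial DNA, RNA and stress were sparsely named. In mitochondrial DNA maintenance, 2 of 18 listed loci were measured. OSB1, a single-stranded DNA-binding protein that limits recombination of the mitochondrial genome, read 77.5 and 51.1 in ku80 with and without bleomycin and 67.5 and 48.8 in wild type with and without it (log2 0.60 and 0.47, limma adjusted p = 0.39). AT2G01440 was at log2 0.53 in ku80 and -0.24 in wild type. Limma called neither for bleomycin. Among RNA factors 3 of 23 loci were measured, with bleomycin differences between -0.45 and 0.16 in ku80 and between -0.21 and 0.12 in wild type, and 0 called. The 3 measured nuclear genes of the mitochondrial ribosome lay between -0.29 and 0.26 in ku80 and between 0.44 and 0.96 in wild type, and 0 were called.

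Among genes of the mitochondrial stress response, 5 of 20 listed loci were measured, and limma called 1 for bleomycin and 1 for genotype, both as risen. Of all measured probe sets, 2.23% were called as risen for bleomycin and 0.143% for genotype. At an unadjusted p under 0.05 there were 2 for bleomycin and 5 for genotype, against 3171 and 1062 of all 15336 measured probe sets. AT2G21640 (UPOX), which responds to oxidative stress, read 428 and 70.4 in ku80 with and without bleomycin, and 376 and 27.8 in wild type with and without it, and rose by 3.18 (log2, SE 0.32, limma adjusted p = 3.8e-05). NDB2, an external NADH dehydrogenase that bypasses complex I, read 216 and 120 in ku80 with and without bleomycin and 104 and 70.1 in wild type with and without it (limma adjusted p = 0.19 for bleomycin). AT2G41730, whose probe set can bind other transcripts, read 249 and 299 in ku80 with and without bleomycin, and 119 and 34.0 in wild type with and without it. For genotype it rose in ku80 (limma adjusted p = 0.029, SE 0.38), with log2 differences from wild type of 1.07 with bleomycin and 3.14 without it. AT5G51440 read 71.7 and 87.0 in ku80 with and without bleomycin and 67.4 and 17.4 in wild type with and without it. In the other direction, AT5G09570 was lower in ku80 than in wild type, by log2 -0.75 with bleomycin and -0.77 without it. Its bleomycin differences were 0.06 in ku80 and 0.03 in wild type.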
